A study of Mus musculus with 6 samples.

Results

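The genes described here are markers of bone-forming cells and of osteoclasts, measured in RNA of the mouse cochlear modiolus, the bony core that carries the spiral ganglion neurons (SGN). Of 10 symbols that define the group, 8 had at least 1 row in the deposited table, namely Runx2, Sp7, Alpl, Spp1, Bglap, Bglap2, Acp5 and Oscar, among 33676 genes with a row in all. Ibsp and Dmp1 had no row and are not analysed here, and a missing row does not show that a gene was not expressed. The genes were chosen by their counts in the degenerated against the control libraries, so the comparison between the groups is given for these 8 genes as a description. No p is given for them, and how many passed a call rule is printed only beside the share of all genes that did. All 6 libraries came from C57BL/6 mice, and the methods describe males of 8 weeks. The 3 control libraries were from saline-treated mice, and the 3 degenerated libraries from mice killed 30 days after subcutaneous kanamycin sulfate (1 g/kg) and, after 30 minutes, intraperitoneal furosemide (0.4 g/kg), a treatment that destroys hair cells and is followed by loss of SGN. The sources used here do not say whether a library pools several animals, so the spread between libraries may in part be technical.

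In bone, osteoblasts lay down a collagen matrix and mineralise it under the control of the transcription factors RUNX2 and SP7, and they secrete osteocalcin, osteopontin and related matrix proteins. Osteoblasts that are walled into the matrix become osteocytes. Osteoclasts, which arise from the monocyte lineage when RANKL binds its receptor RANK, resorb bone with acid and with enzymes such as tartrate-resistant acid phosphatase. The modiolus and the otic capsule around the cochlea are bone, and a dissected modiolus therefore holds bone cells, and possibly marrow, beside neurons and glia.

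Libraries held 12480876 to 15549319 counts in the table, and CPM below are counts scaled to a common library size after TMM normalization. Single libraries stood apart in other tissues. The summed level of 7 skeletal muscle genes was 435 CPM in control replicate 3 and 3.38 to 9.98 CPM in the other libraries, and the summed level of 6 marrow granulocyte genes ran from 248 CPM in control replicate 1 to 13360 CPM in control replicate 2. The neurons named in the labels were present in every library, since 8 SGN genes summed to between 10790 and 14060 CPM in control and between 6251 and 9529 CPM in degenerated libraries. Of these 8 genes, 6 were lower and 2 higher in degenerated libraries, and 3 overlapped between the groups. Of 7 hair cell genes 5 were lower and 2 higher in degenerated libraries, and 5 of the 7 overlapped between the groups. The 2 without overlap were genes of outer hair cells, Slc26a5 and Ocm, the latter at 140 to 173 CPM in control and 0.79 to 3.90 CPM in degenerated libraries. Of 14118 genes tested with edgeR's quasi-likelihood test, 0 had an adjusted p under 0.05, with 1367 (9.68%) at an unadjusted p under 0.05. DESeq2 called 383 genes (2.71%) at an adjusted p under 0.05, and limma-voom called 0.

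All 8 genes had lower mean CPM in degenerated libraries, and they differed widely in size. Both osteocalcin genes stood at about one level, 34.3% of the control mean for Bglap and 34.2% for Bglap2, Sp7 was at 44.8%, Alpl at 60.6%, Oscar at 70.9%, Runx2 at 83.5% and Spp1 at 97.8%. Acp5 was at 11.2%, with the largest spread between replicates of the 8. In 5 of the 8, namely Sp7, Alpl, Bglap, Bglap2 and Acp5, every degenerated library lay below every control library, an arrangement seen in 7.37% of all genes tested. A gene was called where the unadjusted edgeR p was under 0.01 and the log2 fold change passed 0.2 in size. By this rule 2 of the 8 were called lower (Bglap and Bglap2), beside 0.715% of all genes tested (2.73% in either direction), and 0 of the 8 had an adjusted p under 0.05, beside 0%. The count was 4 in DESeq2 (Sp7 and Acp5 as well), beside 2.17% of all genes called lower there, and 1 (Acp5) with the replicate number as a block in edgeR, beside 0.411%. With a library left out it ran from 0, without control replicate 2, control replicate 3 or degenerated replicate 2, to 3 without degenerated replicate 3. The median log2 fold change of the 8 was -0.94, beside -0.003 over all genes tested. Nothing is read from these counts, because this comparison was part of how the genes were picked. In bulk RNA, fewer bone cells and less RNA per cell cannot be told apart.

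**Figure D1:**
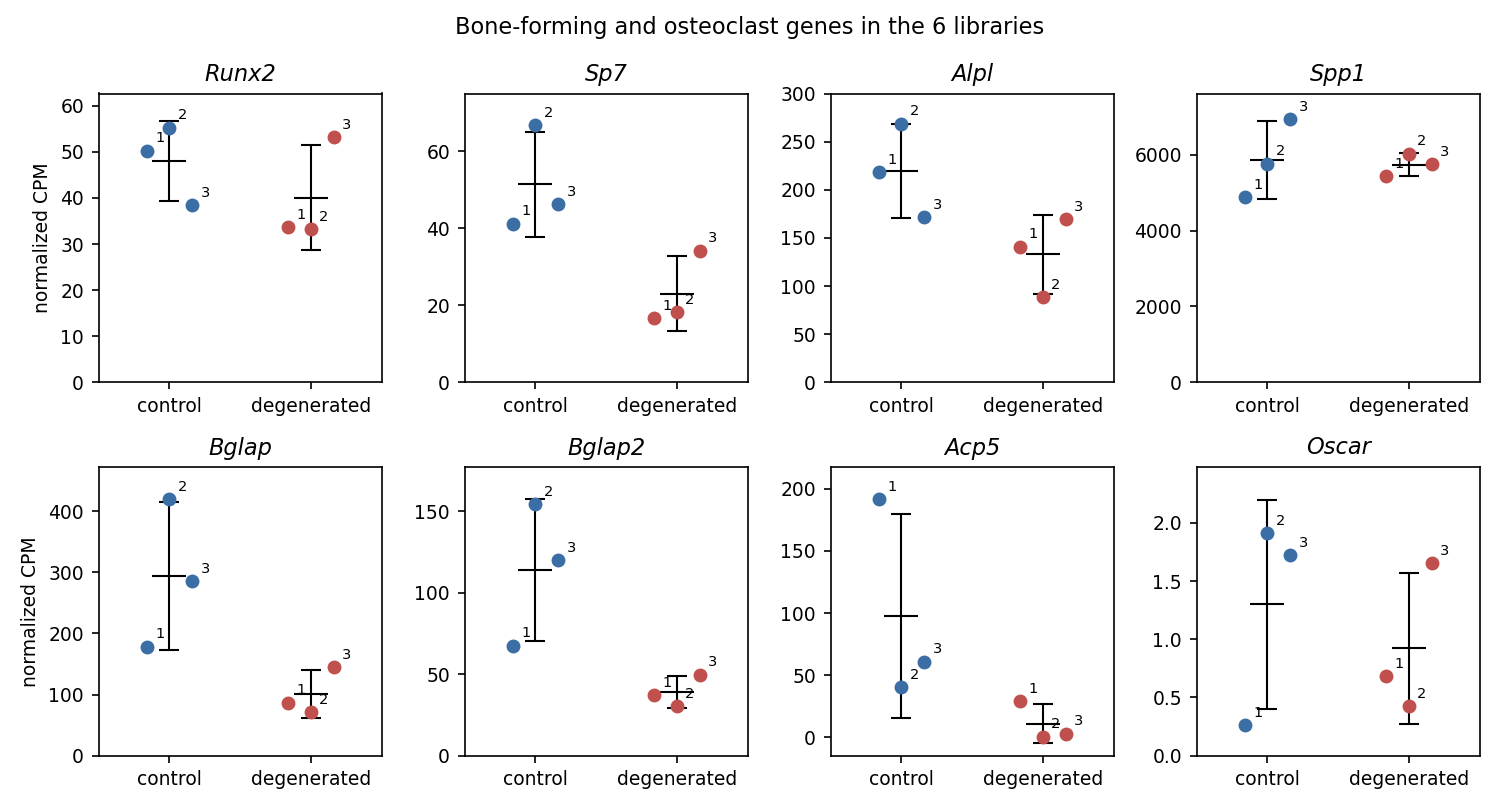
Normalized CPM (vertical axis, linear) of each of the 8 genes in the 3 control (blue) and 3 degenerated (red) libraries, with replicate numbers beside the points, the mean as a long dash and the SD as whiskers. Sp7, Alpl, Bglap, Bglap2 and Acp5 show no overlap between the groups, whereas Runx2, Spp1 and Oscar overlap.

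Runx2 encodes the transcription factor that starts the osteoblast program, and it lies on chromosome 17 of GRCm38 from 44495987 to 44814797. It had 50.3, 55.2 and 38.4 CPM in control replicates 1, 2 and 3, and 33.7, 33.2 and 53.2 CPM in degenerated replicates 1, 2 and 3. The groups overlapped, because degenerated replicate 3 stood above control replicates 1 and 3. Its log2 fold change (log2FC, degenerated over control) was -0.26, and the standard error (SE) was 0.26. Of its 13 annotated transcripts 6 were listed in the table, and 2 of them held nearly all counts. Runx2-203, which starts at the inner promoter (position 44736648 on the minus strand), took 66.7% of the counts over all libraries, and Runx2-202, which starts at the outer promoter (position 44814797), took 31.5%. The share of Runx2-202 was 52.4%, 16.7% and 0% in control replicates 1, 2 and 3 and 42.8%, 57.0% and 27.3% in degenerated replicates 1, 2 and 3. Control replicate 3 thus had 0 counts assigned to Runx2-202, and the shares of the groups overlapped. With Runx2-203 alone the log2FC was -0.65.

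Sp7 encodes osterix, the zinc finger factor that acts after RUNX2 in osteoblast differentiation, and lies on chromosome 15 from 102356606 to 102367182. It had 41.2, 66.8 and 46.3 CPM in control replicates 1, 2 and 3 and 16.7, 18.2 and 34.2 CPM in degenerated replicates 1, 2 and 3. Every degenerated library was below every control library, with degenerated replicate 3 the closest to the controls. The control mean of 51.4 ± 13.6 CPM stood against 23.0 ± 9.68 CPM after degeneration (SD, n = 3 per group), for a log2FC of -1.16 (SE 0.35). The table listed 1 of its 3 transcripts. Counts of Sp7 per count of Runx2 were 0.818, 1.21 and 1.20 in control replicates 1, 2 and 3 and 0.495, 0.549 and 0.642 in degenerated replicates 1, 2 and 3. The ratio was lower in all 3 degenerated libraries than in any control, as Sp7 itself was. Nothing further is read from it, because only some transcripts of either gene were listed and ratios of other genes were not compared.

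RUNX factors bind DNA at a short core that is spelled ACCACA, or TGTGGT on the other strand. Promoters of 6 of the 8 genes were given in RefSeq on GRCm38.p6, as windows of 250 bases before and 50 after a start, 10 in all. Sp7 and Bglap2 had no entry. The core letters were present in 3 of these 10 windows, against 16.8% of 32851 windows of this length over all genes. The windows with the letters are shown because they belong to Runx2 itself, to the osteocalcin gene Bglap, which was lower in degenerated libraries, and to Spp1, whose level overlapped between the groups. Capitals mark the core.
Runx2 promoter, chr17:44814578-44814877, minus strand: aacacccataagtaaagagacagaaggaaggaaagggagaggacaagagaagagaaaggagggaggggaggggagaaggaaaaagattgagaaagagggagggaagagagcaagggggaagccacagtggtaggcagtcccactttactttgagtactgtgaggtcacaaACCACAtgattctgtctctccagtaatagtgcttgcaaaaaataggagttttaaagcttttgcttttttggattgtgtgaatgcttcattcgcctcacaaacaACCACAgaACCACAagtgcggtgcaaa
Bglap promoter, chr3:88384417-88384716, minus strand: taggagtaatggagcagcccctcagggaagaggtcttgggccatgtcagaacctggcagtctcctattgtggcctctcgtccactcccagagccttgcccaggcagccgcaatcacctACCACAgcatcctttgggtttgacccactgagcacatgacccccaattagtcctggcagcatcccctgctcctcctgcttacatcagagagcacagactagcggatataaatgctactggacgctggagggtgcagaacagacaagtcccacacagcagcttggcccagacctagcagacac
Spp1 promoter, chr5:104434861-104435160, plus strand: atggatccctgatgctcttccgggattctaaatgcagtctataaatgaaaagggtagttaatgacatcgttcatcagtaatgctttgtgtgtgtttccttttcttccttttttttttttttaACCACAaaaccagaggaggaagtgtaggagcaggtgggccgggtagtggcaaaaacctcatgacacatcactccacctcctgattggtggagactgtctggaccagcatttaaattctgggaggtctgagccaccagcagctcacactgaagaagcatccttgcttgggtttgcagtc
The core began 132 bases before the start base of Bglap and 128 bases before that of Spp1. In Runx2 it was present 3 times, beginning 80 bases before and 23 and 31 bases after the start base, and 0.183% of all windows held it 3 times or more. Spp1 had a second window, at the start of Spp1-204, and it did not hold the core letters. Spp1-204 took 84.35% of the Spp1 counts over all libraries, so the Spp1 window shown belongs to less abundant forms. The Runx2 window shown is at the outer promoter. Runx2-203, with 66.7% of the Runx2 counts, starts at the inner promoter, for which no window was given. These are matches of letters and not measured binding. Whether these letters have a part in the differences between the groups was not tested.

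Alpl encodes tissue-nonspecific alkaline phosphatase, which frees phosphate for mineral and removes the mineralisation inhibitor pyrophosphate. It lies on chromosome 4 from 137741733 to 137796384. Its CPM were 218, 269 and 171 in control replicates 1, 2 and 3 and 141, 88.7 and 169.7 in degenerated replicates 1, 2 and 3. The groups did not overlap, but degenerated replicate 3 and control replicate 3 were nearly equal. The log2FC was -0.72 (SE 0.28). Of 8 transcripts 6 were listed, and the full-length Alpl-201 of 12 exons held 97.8% of the counts. Its share was between 97.5% and 98.7% in every library but degenerated replicate 3, where it was 93.2% and the shorter Alpl-205 held 5.67%.

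Spp1 encodes osteopontin, an acidic glycoprotein of bone matrix that binds integrins and that macrophages and several epithelia also make. It lies on chromosome 5 from 104435118 to 104441050, in a cluster with the related genes Dspp, Dmp1, Ibsp and Mepe, for which the table had no row. Its CPM were 4884, 5769 and 6946 in control replicates 1, 2 and 3 and 5427, 6032 and 5755 in degenerated replicates 1, 2 and 3. The degenerated libraries lay within the range of the controls, and the log2FC was -0.03 (SE 0.16). All 7 transcripts were listed, and Spp1-204 held 81.4% to 85.9% of the counts in each library. Control replicate 3 differed from the other libraries in some of the less abundant forms. It had 479 CPM of Spp1-202 where the others had 4.93 to 8.21 CPM, and 380 CPM of Spp1-207 where the others had 55.5 to 91.6 CPM. Its Spp1-201 was 344 CPM against 567 to 741 CPM elsewhere. Without control replicate 3, the log2FC of Spp1 was 0.10.

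**Figure D2:**
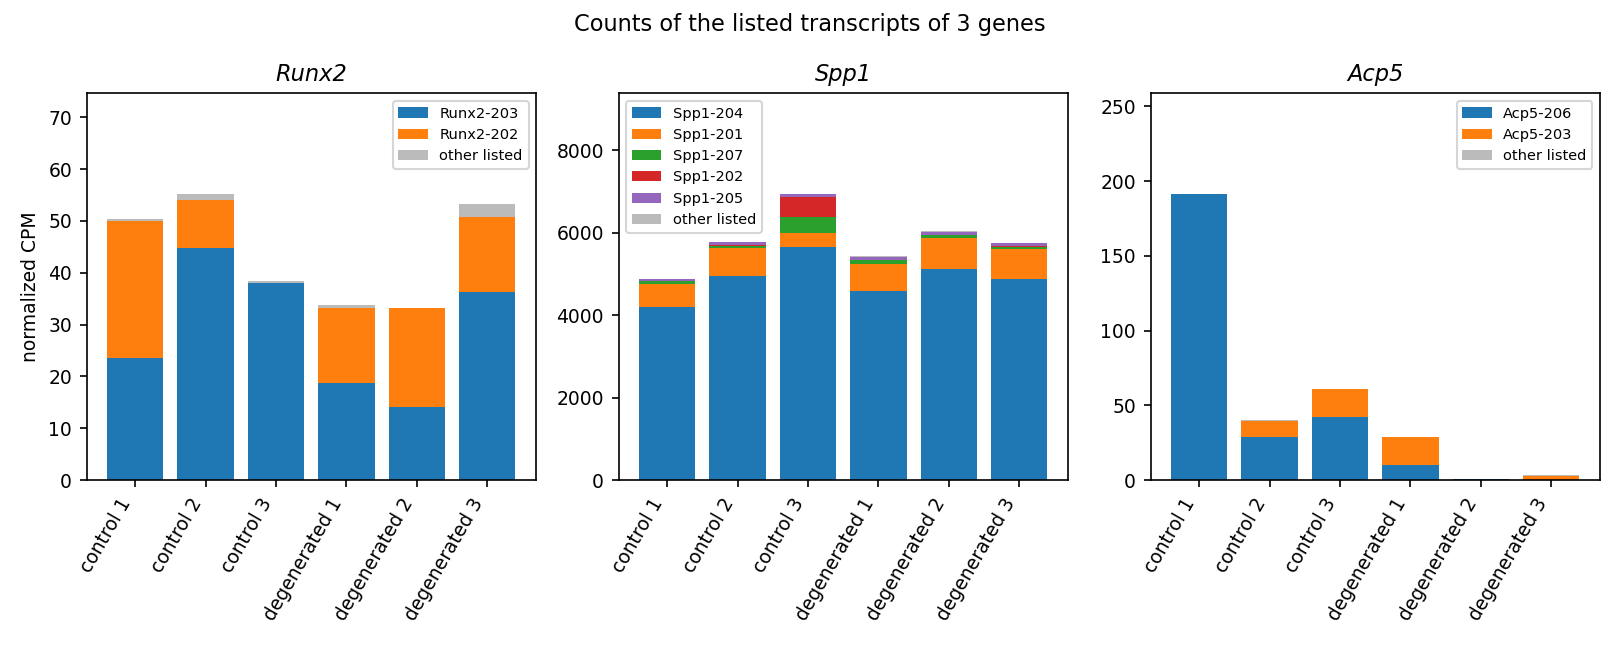
Normalized CPM (vertical axis, bars from 0) of the listed transcripts of Runx2, Spp1 and Acp5 in each library, stacked by transcript, with transcripts under 1% of the gene's counts over all libraries drawn together. Runx2-202 is missing from control replicate 3, Spp1 has 479 CPM of Spp1-202 in that library, and Acp5 is made up of Acp5-206 in control replicate 1.

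Bglap and Bglap2 encode osteocalcin, the small vitamin K-dependent protein that osteoblasts secrete into mineralised matrix. Both lie on chromosome 3 on the minus strand, Bglap2 from 88377736 to 88378699 and Bglap from 88383501 to 88384464, and every annotated transcript of both was listed. Their coding sequences from GENCODE M21 have 288 bases each over 4 exons and are shown because their likeness bears on how far reads could be assigned to one or the other. Capitals mark the 4 bases at which they differ.
Bglap-201, chr3:88383635-88384415: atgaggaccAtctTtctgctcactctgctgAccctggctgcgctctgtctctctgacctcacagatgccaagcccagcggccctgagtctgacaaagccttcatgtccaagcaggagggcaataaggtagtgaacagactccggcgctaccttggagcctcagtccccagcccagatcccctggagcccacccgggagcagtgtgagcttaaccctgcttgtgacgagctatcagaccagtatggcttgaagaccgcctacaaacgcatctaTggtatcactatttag
Bglap2-201, chr3:88377870-88378650: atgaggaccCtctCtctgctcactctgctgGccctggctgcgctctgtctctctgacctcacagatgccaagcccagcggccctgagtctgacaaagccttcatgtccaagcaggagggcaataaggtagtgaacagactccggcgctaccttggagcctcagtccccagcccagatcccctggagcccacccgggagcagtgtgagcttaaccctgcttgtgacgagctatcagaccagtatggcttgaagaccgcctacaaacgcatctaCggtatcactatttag
The coding sequences were identical at 98.6% of positions, and 74.7% of all stretches of 50 bases in Bglap-201 also occurred in Bglap2-201. The sources used here do not say how the authors treated reads that match both genes, and the division of counts between the pair is uncertain.

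Bglap had 178, 419.5 and 285 CPM in control replicates 1, 2 and 3 and 86.9, 71.2 and 145 CPM in degenerated replicates 1, 2 and 3. Bglap2 had 67.6, 154 and 120.1 CPM in control and 37.0, 30.3 and 49.8 CPM in degenerated replicates, in the same order. For both genes control replicate 2 was the highest of all libraries, control replicate 1 was the lowest control, and each degenerated library was below it. The means were 294 ± 121 and 101.0 ± 38.8 CPM for Bglap and 114.0 ± 43.7 and 39.0 ± 9.91 CPM for Bglap2 (control and degenerated, SD, n = 3 each). The log2FC was -1.54 (SE 0.40) for Bglap and -1.55 (SE 0.35) for Bglap2. Counts of Bglap2 were between 34.4% and 42.6% of those of Bglap in every library, and the spliced Bglap-201 held 78.1% to 82.5% of the counts of its gene, the rest being a form with a retained intron. The related gene Bglap3, of which 2 of 5 transcripts were listed, had 6.29, 9.27 and 15.0 CPM in control and 4.17, 5.07 and 3.24 CPM in degenerated replicates (log2FC -1.29, SE 0.42, edgeR adjusted p 0.421). Its coding sequence was identical to that of Bglap at 95.5% of positions.

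Acp5 encodes tartrate-resistant acid phosphatase, an enzyme of osteoclasts that other macrophages also make, and lies on chromosome 9 from 22126727 to 22135711. It had 191.5, 40.3 and 60.9 CPM in control replicates 1, 2 and 3 and 28.9, 0.56 and 3.16 CPM in degenerated replicates 1, 2 and 3. Control replicate 1 was 4.75 times control replicate 2, and degenerated replicate 1 was 51.3 times degenerated replicate 2, so that libraries of 1 group differed more than the genes above did between groups. The log2FC was -3.16 (SE 1.41). Without degenerated replicate 1 it was -5.73, and without control replicate 1 it was -2.22. Of 6 transcripts 3 were listed, and 3 protein-coding forms were not. Acp5-206 held all counts in control replicate 1 and degenerated replicate 2, 70.7% and 69.7% in control replicates 2 and 3, 35.7% in degenerated replicate 1 and 2.50% in degenerated replicate 3. Counts that the authors assigned to the other forms are not part of these values, and the level of the whole gene is not known from them.

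Oscar encodes an activating receptor of osteoclasts that signals beside RANK, and lies on chromosome 7 from 3609813 to 3616157. It was close to the lower limit of the data, with 4, 27 and 27 counts in control replicates 1, 2 and 3 and 10, 6 and 21 counts in degenerated replicates 1, 2 and 3. In CPM these were 0.26, 1.91 and 1.72, and 0.68, 0.42 and 1.66. The groups overlapped, and the log2FC was -0.50 (SE 0.85). The table listed 1 of its 4 transcripts.

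**Figure D3:**
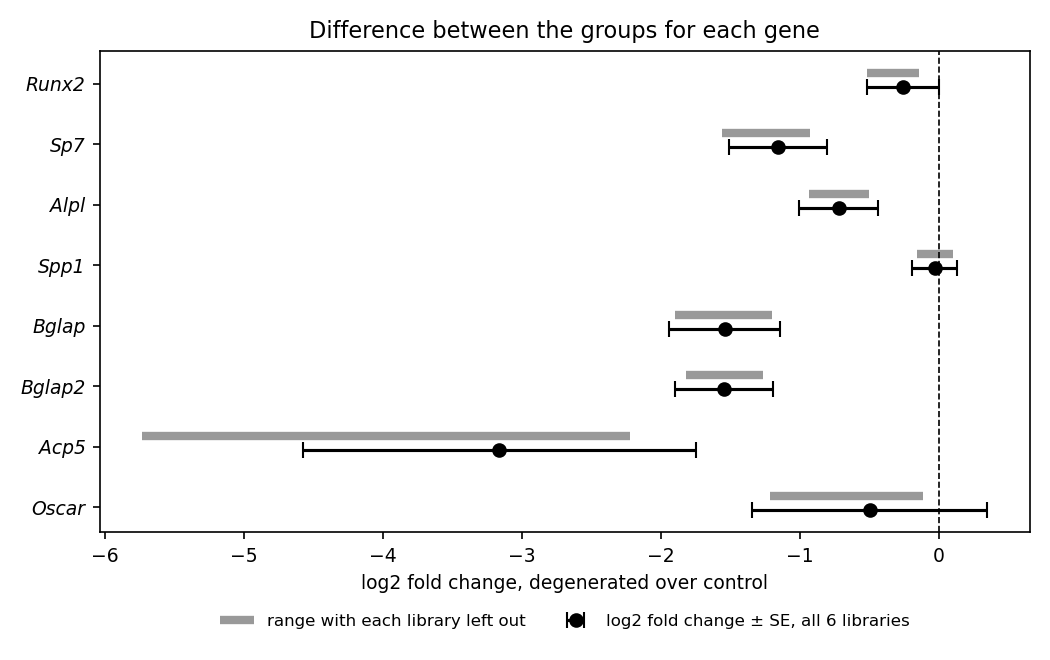
Log2 fold change of degenerated over control libraries (horizontal axis) for each gene, with the standard error as whiskers and, as a grey bar, the range when each of the 6 libraries was left out in turn. Bglap and Bglap2 stay between -1.90 and -1.20, Acp5 spans -5.73 to -2.22, and Spp1 spans 0.

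Levels of different genes were compared as CPM per kilobase of the listed transcripts. In control libraries Spp1 was highest (3978 ± 701), followed by Bglap (696 ± 286), Bglap2 (242 ± 92.8), Alpl (88.4 ± 19.7), Acp5 (68.2 ± 57.3), Sp7 (16.6 ± 4.38), Runx2 (7.73 ± 1.40) and Oscar (0.71 ± 0.49; SD, n = 3 each). Acp5 differed from its neighbours Alpl and Sp7 by less than its own SD. In degenerated libraries the order was the same, with Spp1 at 3891 ± 205, Bglap at 239 ± 91.8, Bglap2 at 82.9 ± 21.1, Alpl at 53.6 ± 16.6, Acp5 at 7.60 ± 11.0, Sp7 at 7.44 ± 3.13, Runx2 at 6.45 ± 1.83 and Oscar at 0.50 ± 0.36 (CPM per kilobase, SD, n = 3 each). There Acp5, Sp7 and Runx2 lay within their SD of each other. Where only some transcripts of a gene were listed, these levels describe those transcripts.

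Across the 6 libraries of both groups, Sp7 and Bglap varied together, with a Pearson r of 0.97 on the log2(CPM + 1) scale. So did Bglap and Bglap2 (0.99) and Alpl and Sp7 (0.86), while Runx2 had 0.67 with Bglap and 0.57 with Bglap2. Spp1 did not follow these genes, with r between -0.33 and 0.29 to the other 5 bone-forming genes. Nothing is read from these r, because the genes were picked by the difference between the groups. Bglap and Bglap2 also share much of their sequence. The mean pattern of the 6 bone-forming genes was highest in control replicate 2 (0.77 on the log2 scale, relative to the mean of the libraries), then in control replicates 3 (0.38) and 1 (0.14) and degenerated replicates 3 (-0.03), 1 (-0.55) and 2 (-0.71). Of 9890 other genes with a mean of at least 5 CPM, the 5 most like this pattern were Bzw2 (r = 0.99), Serbp1 (0.99), Mmp9 (0.99), Phf7 (0.98) and Rhno1 (0.98), over 6 libraries that include both groups, and 122 genes (1.23%) had an r of at least 0.9. The sixth was Pth1r, the parathyroid hormone receptor of osteoblasts, also with r = 0.98. It was the highest of the other bone-forming genes compared, whose r ran down to -0.72 for Serpinh1. Postn (-0.42), Omd (-0.36) and Sparc (-0.20) were also negative, and the rest of that list was positive.

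Other genes of bone-forming cells were described from a list of 20, of which 19 had a row and 18 were tested. The median log2 fold change was -0.32, beside -0.003 over all genes tested, and 14 of the 18 were lower, beside 50.3% of all genes tested. By the call rule 0 of the 18 passed in either direction, beside 0.715% lower and 2.01% higher over all genes. All degenerated libraries lay below all controls in 3 of them, namely Bglap3, Pth1r and Dlx3, beside 7.37% of all genes, and above in 1, Serpinh1, beside 10.3%. Pth1r had 81.2, 113.6 and 93.9 CPM in control replicates 1, 2 and 3 and 66.6, 61.1 and 74.4 CPM in degenerated replicates 1, 2 and 3 (log2FC -0.51, SE 0.17, edgeR adjusted p 0.421). Serpinh1, a chaperone for collagen, had the highest log2 fold change of the list (0.82, SE 0.52, edgeR adjusted p 0.666), with 324, 77.3 and 319 CPM in control and 420.1, 364 and 488 CPM in degenerated replicates. Tnn, which encodes the matrix protein tenascin-W, had the lowest (-2.68, SE 1.44, edgeR adjusted p 0.612), and its control replicates were at 11.9, 0.14 and 2.11 CPM. Col1a1, the main collagen chain of bone, was represented by 1 of 4 transcripts at 0.06 to 0.42 CPM, while Col1a2, with 4 of 8 transcripts, had 1253 to 1608 CPM in control and 864 to 1292 CPM in degenerated libraries.

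Of 9 osteocyte genes 5 had a row and were tested, and 0 were called, beside 0.715% of all genes called lower and 2.01% called higher. Sost, Mepe, Dkk1 and Irx5 had no row. The median log2 fold change was -0.14, with 3 genes lower (50.3% over all genes) and 2 higher and an overlap between the groups in all 5, and it was 0.33 without control replicate 1. Phex, an osteocyte gene that acts in phosphate balance, had the lowest log2 fold change (-0.40, SE 0.17, edgeR adjusted p 0.526), with 142, 159 and 113 CPM in control and 107, 92.0 and 115.5 CPM in degenerated replicates. Pdpn had the highest (0.76, SE 0.47, edgeR adjusted p 0.660) at 0.71 to 2.11 CPM over all libraries.

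Of 17 other osteoclast genes 14 had a row and 11 were tested. Ctsk, the main collagen-degrading protease of osteoclasts, Dcstamp and Trem2 had no row, and Calcr had at most 1.42 CPM. In the 11 the median log2 fold change was -0.28, and leaving out control replicate 2 gave -0.13, degenerated replicate 1 gave -0.17 and degenerated replicate 3 gave -0.46. Of the 11, 10 were lower and 1 higher, beside 50.3% of all genes lower, and 0 were called, beside 0.715% of all genes called lower and 2.01% called higher. Mmp9, a gelatinase of osteoclasts and of granulocytes, had the lowest log2 fold change. It had 158, 414 and 178 CPM in control replicates 1, 2 and 3 and 50.3, 48.7 and 142 CPM in degenerated replicates 1, 2 and 3, without overlap (log2FC -1.64, SE 0.59, edgeR adjusted p 0.469). The proton pump subunit Atp6v0d2 had 34.6, 17.6 and 44.0 CPM in control and 21.3, 5.78 and 5.21 CPM in degenerated replicates, and degenerated replicate 1 stood above control replicate 2. Src had the highest log2 fold change (0.33, SE 0.66, edgeR adjusted p 0.898).

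The signals that set osteoclast formation included the 1 gene that was called in the bone and cartilage lists, the 8 genes above aside. Tnfrsf11b encodes osteoprotegerin, the soluble decoy receptor that binds RANKL and keeps it from RANK, and its only annotated transcript was listed. It had 193.5, 241 and 219 CPM in control replicates 1, 2 and 3 and 362, 613 and 514 CPM in degenerated replicates 1, 2 and 3. All degenerated libraries were above all controls, the mean was 228% of the control mean, and the log2FC was 1.19 (SE 0.21; edgeR p 0.00130 unadjusted and 0.240 adjusted), beside 2.01% of all genes called higher. With each library left out in turn it stayed between 1.00 and 1.36 and was called each time, and over all alternatives its adjusted p in the model across all genes ran from 0.000983 in DESeq2 to 0.602 with the replicate block in edgeR. Tnfsf11, which encodes RANKL, was low at 4.34 to 9.98 CPM over all libraries and had a log2FC of -0.22 (SE 0.44). Tnfrsf11a, which encodes RANK, had 9.06 to 11.3 CPM in control and 7.66 to 10.4 CPM in degenerated libraries (log2FC -0.24, SE 0.26). Csf1, with 4 of 7 transcripts listed, had the lowest value of this group (-0.55, SE 0.68), Il34 had 0.21 (SE 0.92), and Csf1r had no row. None of these 4 was called.

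**Figure D4:**
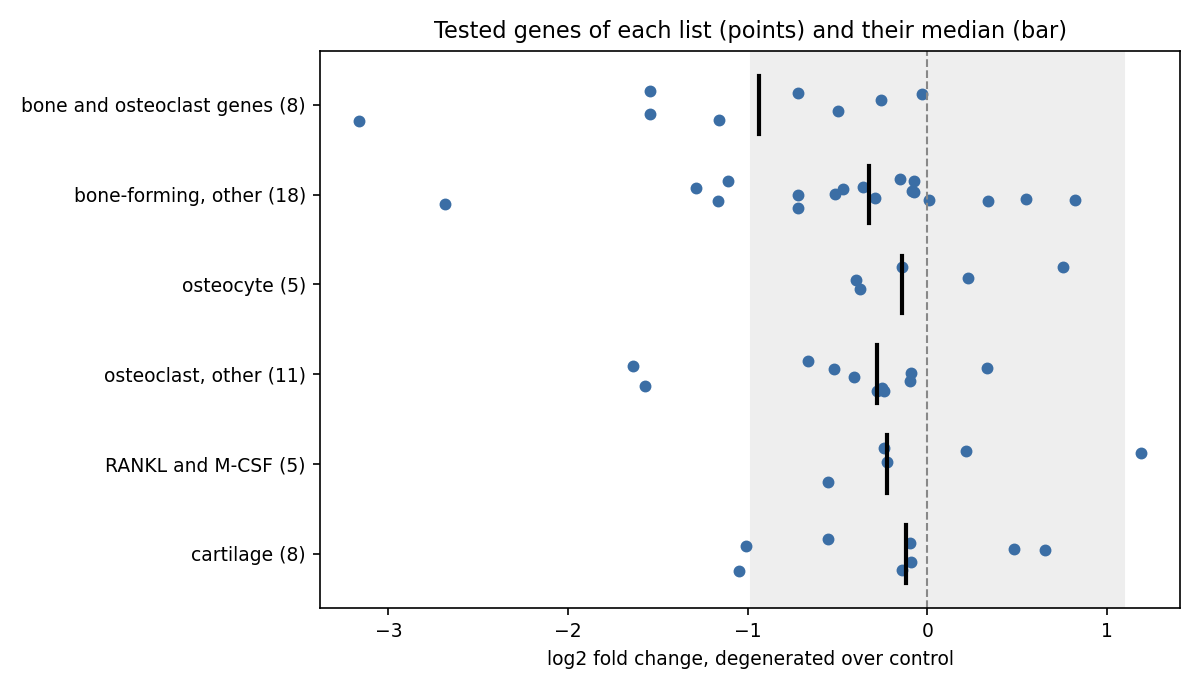
Log2 fold change of degenerated over control libraries (horizontal axis) of every tested gene of the 6 bone and cartilage lists (points, number tested in brackets) with the list's median as a black bar. The grey band holds the central 90% of all genes tested (-0.98 to 1.09) and the dashed line is their median; 4 of the 8 bone and osteoclast genes lie below the band, and Tnfrsf11b is the 1 plotted gene above it.

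Cartilage is the other skeletal tissue next to the modiolus. Of 13 cartilage genes 8 were tested, with a median log2 fold change of -0.12 (leaving out control replicate 3 gave -0.30, degenerated replicate 1 gave -0.27 and degenerated replicate 2 gave -0.04). Of the 8, 6 were lower and 2 higher, beside 50.3% of all genes lower, and 0 were called, beside 0.715% of all genes called lower and 2.01% called higher. Comp, a matrix protein of cartilage and tendon, had the lowest value (-1.05, SE 0.35, edgeR adjusted p 0.432), with 68.3, 30.3 and 68.9 CPM in control and 28.5, 22.8 and 29.8 CPM in degenerated replicates. Matn1 had the highest (0.65, SE 0.89), and Sox9, the chondrocyte transcription factor, had 86.2 to 98.1 CPM in control and 101 to 157 CPM in degenerated libraries (log2FC 0.48, SE 0.18, edgeR adjusted p 0.480).

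Markers of blood and marrow followed the order of the bone genes in part. The 5 listed red cell genes of 6 summed to 6400, 41370 and 21420 CPM in control replicates 1, 2 and 3 and to 7215, 3479 and 16710 CPM in degenerated replicates 1, 2 and 3. The controls took the same order as for Bglap and Sp7, the degenerated libraries the same order as for Bglap, and the groups overlapped. The 6 listed of 8 granulocyte genes summed to 248, 13360 and 6617 CPM in control and to 625, 1934 and 4615 CPM in degenerated replicates. Control replicate 1 had the lowest granulocyte sum of all libraries and a red cell sum below those of degenerated replicates 1 and 3. Of the bone-forming genes, Sp7, Spp1, Bglap and Bglap2 were also lowest among the controls in that library. For Runx2 and Alpl the lowest control was replicate 3. Over libraries of both groups, the r with the mean bone-forming pattern ran from 0.57 (Slc4a1) to 0.88 (Hba-a2) for red cell genes. For granulocyte genes it ran from 0.36 (Retnlg) to 0.64 (Ltf). The 5 listed of 7 macrophage genes summed to 417 to 460 CPM in control and 536 to 714 CPM in degenerated libraries. Most of this sum came from C1qb and C1qc, subunits of complement C1q, which were the 2 of the 5 called higher, beside 2.01% of all genes. Cd68, a lysosomal protein of macrophages, was low and overlapped between the groups, with 0.26, 8.70 and 2.68 CPM in control and 1.16, 0.77 and 2.05 CPM in degenerated replicates (log2FC -1.54, SE 1.11). Muscle genes were high in control replicate 3 alone. No gene of these 4 marker lists that had a row was at 0 in every library, and the part of such cells in the differences of the bone genes was not tested.

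**Figure D5:**
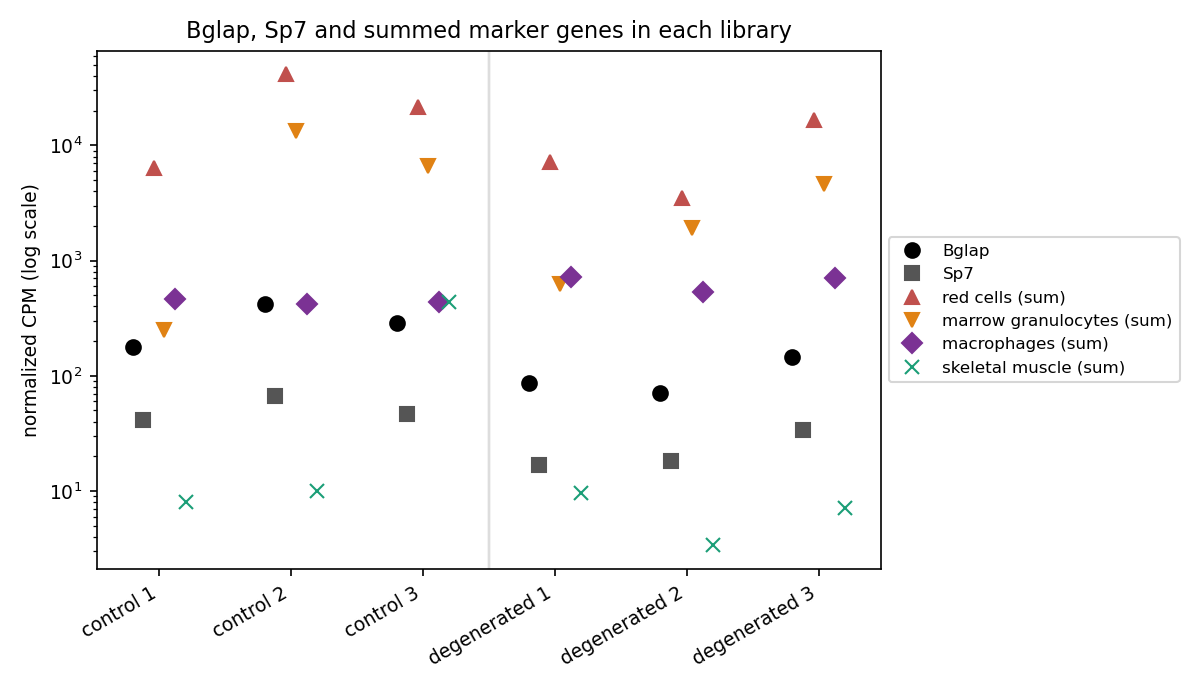
Normalized CPM (vertical axis, log scale) of Bglap, Sp7 and the summed marker genes of red cells, marrow granulocytes, macrophages and skeletal muscle in each library (horizontal axis, points offset to keep them apart). Bglap and Sp7 are higher in all 3 control libraries, while the red cell and granulocyte sums overlap between the groups and muscle genes reach 435 CPM in control replicate 3.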

How the data were processed

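RNA-seq of modiolus tissue covered 3 control and 3 degenerated libraries, grouped by their labels. The methods name Hisat2 for alignment and StringTie for expression, while the submitters' processing notes list Bowtie 0.12.2 and the builds mm8 and mm10 without a role. The sources used here name neither the annotation nor the counting step. The authors deposited raw counts per Ensembl transcript, without normalization, for 65535 transcripts. Of these, 65272 matched GENCODE M21 (GRCm38) by identifier and were summed per gene, and 263 with 0.125% of the counts were left out. They are 46.0% of the annotated transcripts. The sources used here do not say why the others have no row, so a missing row cannot be read as absence of the RNA. Of the 33676 genes with a row 17789 had all annotated transcripts in the table, and the others are covered in part. Gene coordinates are those of GENCODE M21.

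The groups were compared in edgeR 4.0.16 (R 4.3.3) by the robust quasi-likelihood F test without covariates, after filterByExpr and TMM, with Benjamini-Hochberg adjustment over 14118 genes. A call needed p under 0.01 before adjustment and a log2 fold change over 0.2 in size. The standard error is the log2 fold change over the square root of F. Alternatives were DESeq2 1.42.0, limma-voom (limma 3.58.1), RLE factors, no filter and a mean count of 10 as the filter, the most abundant transcript per gene, a block for the replicate number, and leaving out each library. The steps were tested on simulated data. The genes and lists were chosen with earlier results of these data known. Named are all 8 genes, called genes of the lists, the highest and lowest gene of each list, all genes of the RANKL and osteopontin groups and the 5 genes most alike in pattern. Col1a1, Col1a2, Bglap3, Pth1r, Dlx3, Atp6v0d2, Calcr, Ctsk, Dcstamp, Trem2, Sox9 and other genes without a row were named after their values were seen. Same-numbered libraries correlated in their deviations from the group means by 0.16, -0.09 and 0.07. Such values from 3 libraries per group do not settle whether the numbers pair the samples.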

Additional observations from a re-analysis of the deposited data

How the results depend on the processing

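All 8 genes kept a negative log2 fold change under each alternative run, except Spp1, which ran from -0.1565 to 0.10, the latter without control replicate 3. DESeq2 called 479 genes higher and 306 lower, 383 genes at an adjusted p under 0.05, and 4 of the 8 genes (Sp7, Bglap, Bglap2 and Acp5, beside 2.17% of all genes called lower). With the replicate block edgeR called 160 and 58 genes, and 1 of the 8 (Acp5, beside 0.411% called lower). Under the block the log2 fold change was -1.51 for Bglap and -1.49 for Bglap2. Whether the replicate numbers pair the libraries is not known. With each library left out, the genes called higher were 144 to 339 (185 and 171 without control replicates 2 and 3, 144 and 179 without degenerated replicates 2 and 3), those called lower 76 to 158 (158 without control replicate 1), those with an edgeR adjusted p under 0.05 0 to 3, and of the 8 genes 0 to 3. The last were 0 without control replicates 2 or 3 or degenerated replicate 2, 1 (Acp5) without degenerated replicate 1 and 3 (Sp7, Bglap, Bglap2) without degenerated replicate 3.

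The median log2 fold change of the 8 genes was between -1.39, without degenerated replicate 3, and -0.74 with a library left out. It was between -0.48 and -0.29 for the bone-forming list, between -0.46 and -0.13 for the osteoclast list and between -0.3009 and -0.0405 for the cartilage list. The osteocyte median of -0.14 ran from -0.22 to 0.33, turning positive without control replicate 1. With the most abundant transcript per gene, the osteoclast median was -0.50, the cartilage median -0.36, and 3 genes passed an edgeR adjusted p of 0.05. The causes of these shifts were not tested. Oscar had 4 to 27 counts per library in the 1 listed of its 4 transcripts, and its groups overlapped (log2FC -0.50, SE 0.85). How large a difference could be detected at these counts was not tested.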
